A study of Mus musculus with 18 samples.

Results

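Accessible regions near the distal ends of the mouse autosomes, opposite the centromere, were examined in ATAC-seq peak lists of mouse embryonic stem (ES) cells. Overlapping peaks of all 18 lists were merged into regions, the largest peak end found in any list was taken as the end of each of the 19 autosomes, and regions with a midpoint within 2 Mb below that end were kept. This gave 8330 of 377189 regions (2.21%), and they held 35129 of the 1651188 peaks. The stretches cover 38 Mb, which is 1.57% of the span of the 19 autosomes, and the reference is the other 2376 Mb of the same chromosomes with 356704 regions. The boundary is a position only: 21 regions lay within 5 kb inside it and 26 within 5 kb outside it, and the median region on both sides was found in 1 library. The last peak end marks only where the outermost peak of any list was called, and telomeric repeats themselves were not measured.

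Telomeres are the repeat arrays that cap chromosome ends, and mouse autosomes are telocentric, so that one end carries the centromere and the other, distal end borders on unique, often gene-bearing sequence. Topoisomerase II (TOP2) passes one DNA duplex through another to remove tangles and supercoils, and ICRF-193 is a catalytic inhibitor that locks it as a closed clamp. BAF complexes are chromatin remodellers that use ATP to move nucleosomes, with Brg1 as an ATPase subunit and Baf53a as an actin-related subunit. ATAC-seq uses a transposase to tag open DNA, and a peak marks a place where tags pile up.

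All cells were mouse ES cells in serum and LIF on gelatin, and each library was made from a fixed number of sorted viable cells. Wild-type cells received 1 µM ICRF-193 or DMSO for 24 h (2 libraries each) or for 1 h (3 libraries each). Only the titles of the samples name a 1 h treatment; the protocol text states 24 h throughout for wild-type cells, and the titles were followed. Cells of genotype Brg1fl/fl; Actin-CreER and of genotype Baf53afl/-; Actin-CreER received 0.8 µM tamoxifen, which activates the Cre fusion, or ethanol for 24 h, followed by 48 h of growth (2 libraries per group). The Actin-CreER transgene is present in the ethanol controls too, and the Baf53a ethanol controls already lack 1 Baf53a allele. The contrasts named deletion below are tamoxifen against ethanol. No line without a floxed allele received tamoxifen, so effects of tamoxifen or active Cre cannot be told apart from those of the deletions. Replicates were passages of a line, and every p-value reflects variation among such passages, part of which may be technical.

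The lists held 46431 to 129880 peaks (median 92067) and give no numbers of reads, which leaves the sequencing depth unknown. The shortest list, Brg1fl/fl tamoxifen replicate 2, was 0.87 log2 units shorter than its same-numbered control, and in 7 of the 9 same-numbered pairs the treated list was the shorter one. Peak numbers are therefore given as a share of each list, and list length stands beside the results it touches.

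Peaks were denser at the distal ends than in the rest of the same chromosomes in every library. The terminal stretches held 28.4 peaks per Mb in the sparsest library (Brg1fl/fl tamoxifen replicate 2) and 71.3 in the densest (DMSO 1 h replicate 3), with a median of 51.4. In the rest of the chromosomes the range was 18.7 to 51.3 peaks per Mb, with a median of 36.7. The ratio of terminal to remaining density ran from 1.33 in ICRF-193 24 h replicate 2 to 1.52 in Brg1fl/fl tamoxifen replicate 2 and was above 1 in 18 of 18 libraries. The mean log2 ratio was 0.49 ± 0.043 (SD of 8 group means), a 1.41-fold density (two-sided exact sign-flip permutation test over group means, p = 0.0078, the smallest that the 8 groups allow, adjusted p = 0.00977 over 5 measures). All 8 groups measure the same 19 ends. This test, and those of width and score below, thus cover agreement among groups and not variation among chromosome ends. Group means of the density ratio were 1.35 for DMSO and 1.36 for ICRF-193 at 24 h, and 1.41 and 1.43 at 1 h. They were 1.40 and 1.49 in Brg1fl/fl cells with ethanol and tamoxifen, and 1.42 in both Baf53afl/- groups.

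**Figure D1:**
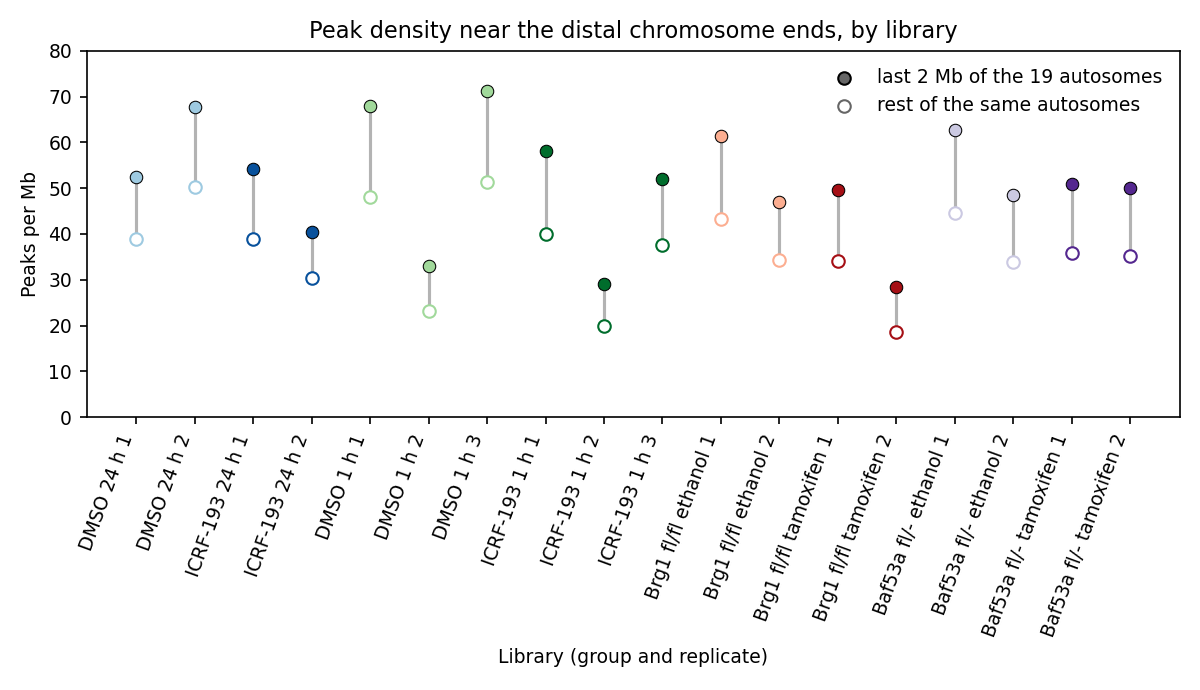
Peaks per Mb (vertical axis, from 0) in each of the 18 libraries (horizontal axis, by group and replicate); filled points are the last 2 Mb of the 19 autosomes and open points the rest of the same chromosomes. The filled point is above the open one in every library, while both move together with the length of the list, from 28.4 and 18.7 in the sparsest library to 71.3 and 51.3 in the densest.

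The opposite, centromere-side end gave an intermediate density. The first 2 Mb from the first peak of each autosome held more peaks per Mb than the rest of the chromosomes in 18 of 18 libraries and fewer than the distal 2 Mb in 18 of 18, by 3.58 to 18.1 peaks per Mb.

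The dense zone was much longer than 2 Mb. Relative to the rest of the chromosomes, the mean peak density was 1.49 in the outermost 0.25 Mb, fell to 1.17 between 0.75 and 1 Mb, and rose to 1.65 between 1.75 and 2 Mb. It was 1.57 between 2 and 3 Mb, 1.59 between 6 and 8 Mb, 1.25 between 10 and 15 Mb and 1.26 between 20 and 30 Mb, and reached 1.03 between 30 and 40 Mb. The excess is thus not particular to the last 2 Mb. The groups followed the same course except in the outermost 0.5 Mb, where the tamoxifen-treated Brg1fl/fl libraries stood highest: their ratio was 1.79 in the outermost 0.25 Mb against 1.43 in their ethanol controls, and 1.68 against 1.37 in the next 0.25 Mb.

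**Figure D2:**
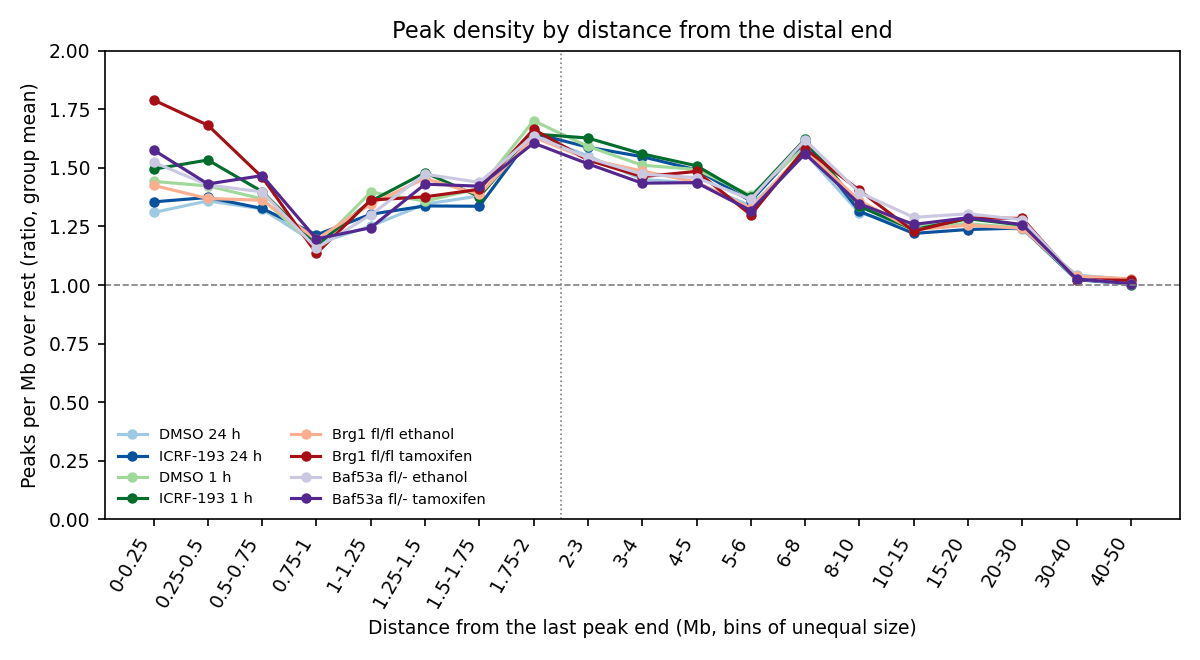
Ratio of peaks per Mb to the rest of the chromosomes (vertical axis, from 0) by distance from the last peak end in Mb (horizontal axis, bins of unequal size); each line is the mean of 1 group, the dashed line marks a ratio of 1 and the dotted line the 2 Mb boundary. The lines stay above 1 to 30 Mb and lie close together, and the tamoxifen-treated Brg1fl/fl group is the top line in the outermost bins at 1.79 and 1.68.

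Terminal peaks were also slightly wider, and more of them had high scores. The deposited score comes without a unit and was used only as a rank within each list. The median terminal peak was 190 to 238 bp wide and exceeded the median of the rest by 5 to 22.5 bp, in 18 of 18 libraries (mean log2 ratio 0.082 ± 0.016, SD of 8 group means, a 1.06-fold width, exact sign-flip permutation test, adjusted p = 0.00977). Peaks of 1 kb or more took a larger share of the terminal peaks in 17 of 18 libraries, by 0.84 percentage points on average over the 8 groups, with Brg1fl/fl tamoxifen replicate 2 as the exception (exact sign-flip permutation test, adjusted p = 0.00977). Peaks in the top 10% of scores made up 11.2% to 14.7% of the terminal peaks against 9.69% to 9.88% of the others, higher in 18 of 18 libraries (mean difference 2.89 percentage points, exact sign-flip permutation test, adjusted p = 0.00977). The median score percentile itself differed little: it was higher in 10 libraries, lower in 4 and equal in 4, by 1.29 percentile points on average (exact sign-flip permutation test, adjusted p = 0.0156), and with a stretch of 5 Mb the sign turned (-0.44). Across the 18 libraries this percentile difference followed list length, with larger differences in shorter lists (Pearson r = -0.870, permutation p = 1e-05, the smallest that the resamples can give, Spearman rho = -0.820, p = 6e-05, adjusted 3e-05 and 0.00018 over 3 relations). Without the 2 libraries farthest from the median length r was -0.824. Among the 10 libraries of replicates 2 and 3 it was -0.912, and among the 8 libraries of replicate 1 it was -0.316 (exact permutation p = 0.454).

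Within single libraries, the share of terminal regions with a peak was below that of the rest in 16 of 18 libraries. It was higher in ICRF-193 1 h replicate 1 and Brg1fl/fl tamoxifen replicate 2, and the median difference was -0.91 percentage points. Group means were 25.7% against 27.9% with DMSO for 24 h and 16.5% against 16.4% in tamoxifen-treated Brg1fl/fl cells. Only this last group had a higher mean at the ends, and the differences were not tested. Detection across libraries was uneven at both extremes. Of the 8330 terminal regions, 459 (5.51%) had a peak in all 18 libraries, against 4.79% of regions in the rest, and 4828 (58.0%) had a peak in 1 library alone, against 54.9%. Per Mb this is 12.1 regions shared by all libraries against 7.19, and 127 regions of 1 library against 82.4. In the first 2 Mb of the autosomes 6.42% of 5915 regions were shared by all libraries and 53.0% were found in 1. Per Mb these were 10 and 82.5 regions, so the higher shared percentage was not particular to the distal ends. The shared terminal regions were broad, with a median width of 961 bp and 45.3% at 1 kb or more, while the regions of 1 library had a median width of 139 bp. The corresponding figures for shared regions in the rest were 912 bp and 40.9%. Both shares depend on how much of each list is used: among the top-scoring 46431 peaks of every list, 14.5% of terminal regions were shared by all libraries and 37.6% were found in 1, against 10.8% and 36.6% in the rest. Among the top 50% of each list by score, regions of 1 library were the smaller share at the ends, 28.2% against 29.8%.

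The 5 terminal regions of highest mean score percentile among those shared by all 18 libraries lay on chromosomes 9, 18, 10 and 13 (mm9, positions counted from 1). On chromosome 9 the region was chr9:123370937-123371308, with a mean percentile of 99.99 ± 0.0055 (SD, n = 18 libraries), and it was the narrowest of the 5 at 372 bp. The region chr18:90748605-90749445 lay 22266 bp from the last peak end and had a mean percentile of 99.96 ± 0.032. The others, chr10:129856626-129857726, chr13:118747232-118748384 and chr10:128132737-128133918, were 1101 to 1182 bp wide, and none of the 5 fell below the 99th percentile in any library.

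The outermost regions, whose peaks set the ends by the rule, differed in detection. At 3 of the 19 ends the outermost region was found in all 18 libraries. At 8 ends it was found in 1 library and at 8 in 2 to 17 libraries. Over all terminal regions 5.51% were found in all 18 libraries and 58.0% in 1. Whether the outermost regions differ from the others was not tested. The region nearest to the end that all 18 libraries shared lay 486.5 to 126222 bp from the last peak end, with a median of 34289.5 bp, and within 100 kb at 16 ends. The closest was chr6:149514080-149515053, whose score percentile was 98.7 or more in every library (mean 99.58 ± 0.26, SD, n = 18). The farthest was chr9:123947810-123948556. On chromosome 4 the outermost region, chr4:155628432-155629986, was shared by all libraries but ranked anywhere from the 8.07th to the 92.0th percentile of scores.

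The 19 ends differed widely. On the mean of 18 libraries 15 ends were denser than the rest of their own chromosome, 11 of them in every library, and none was sparser in every library. The ratio of an end to its own chromosome ran from 0.777 on chromosome 18 to 2.71 on chromosome 15, with a median of 1.33. Cutting each chromosome into 2 Mb windows from the last peak end, 3 ends ranked in the top decile of their chromosome's windows and 2 below the median, and the median end stood at the 76.0th percentile.

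The chromosome 15 end was the densest, with 92.0 ± 20.7 peaks per Mb (SD, n = 18 libraries) against 34.5 in the rest of the chromosome. It held 110 peaks in the sparsest library, 191.5 in the median library and 257 in the densest, and it ranked first of the 50 windows of its chromosome. In the supplied gene table, which follows another build (GRCm38.p6) and was read only for gene order, the last 100 named protein-coding genes of this chromosome include 9 Hoxc genes, homeobox factors of body patterning, and 24 keratin (Krt) genes of epithelial filaments. How many of them lie in the last 2 Mb could not be read across builds. Its last 3 genes in order are Ppp1r1a, which encodes a protein phosphatase 1 inhibitor, Glycam1, a mucin-like L-selectin ligand, and Mucl2.

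The end of chromosome 2 held 82.8 ± 17.01 peaks per Mb, 2.10 times the rest of its chromosome, and its last genes are Myt1, a zinc finger factor of neural cells, Pcmtd2 and Polr3k, an RNA polymerase III subunit. At the chromosome 11 end there were 81.5 ± 17.9 peaks per Mb. That chromosome was dense as a whole (50.1 in the rest), so that the ratio was 1.64, and its last genes are B3gntl1, Metrnl, a secreted meteorin-like factor, and Ptchd3. These 2 ends overlap in their spread over libraries, which includes the differences in list length, and they were not compared within libraries. Of their regions, 49 (8.80%) and 51 (8.40%) were shared by all 18 libraries.

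The sparsest end was that of chromosome 18, with 26.0 ± 11.2 peaks per Mb against 33.0 in the rest of the chromosome; 3 of 18 libraries showed the opposite order. It held 20 peaks in the sparsest library, 47.5 in the median library and 103 in the densest, and 8 of its 349 regions (2.29%) were shared by all libraries. Its last genes are Cd226, an immune cell receptor, Dok6, an adaptor protein, and Tmx3. Chromosome 3 had 27.2 ± 9.55 peaks per Mb at its end against 32.5 in its rest, below it in 16 of 18 libraries, and ends in Depdc1a, Rpe65, the retinoid isomerase of the retinal pigment epithelium, and Wls, which carries Wnt proteins to the cell surface. Chromosome 14 had 31.0 ± 10.8 peaks per Mb against 28.5, above its rest in 12 of 18 libraries, and ends in Nalcn, a sodium leak channel, Itgbl1 and Fgf14, a modulator of sodium channels. These 3 sparse ends overlap in their spread over libraries. List length is part of that spread and moves all ends of a library together, and the ends were not compared within libraries.

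**Figure D3:**
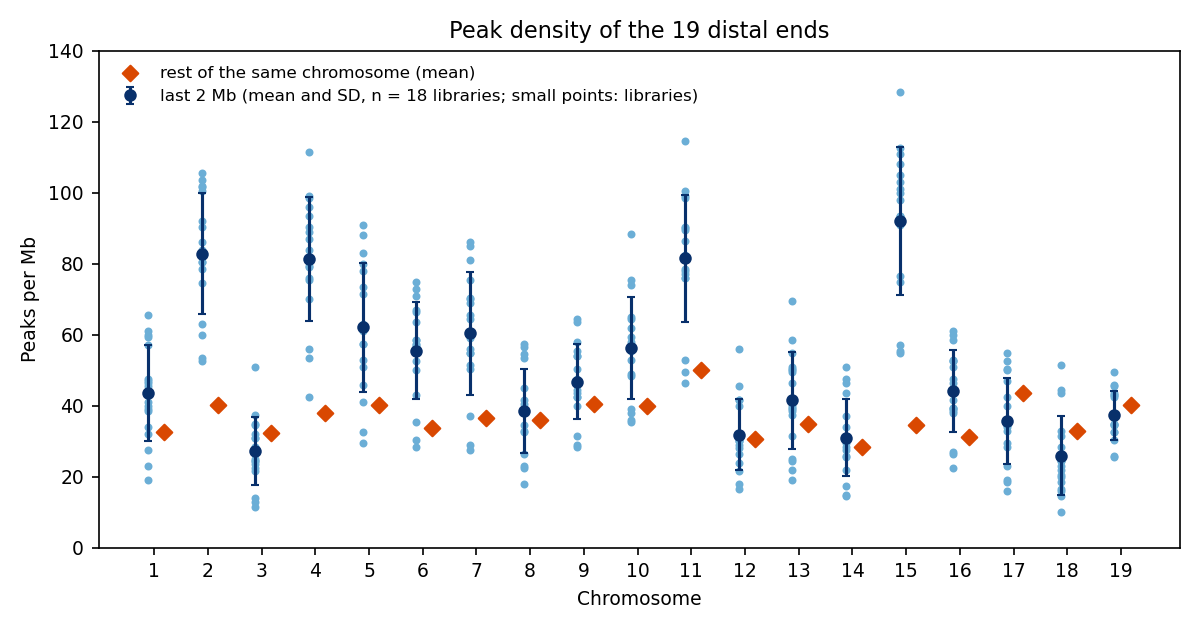
Peaks per Mb (vertical axis, from 0) in the last 2 Mb of each autosome (horizontal axis); small points are the 18 libraries, large points with bars their mean and SD, and diamonds the mean of the rest of the same chromosome. Chromosomes 15, 2, 11 and 4 stand highest, at 81.2 to 92.0, and the ends of chromosomes 3, 17, 18 and 19 lie below their diamonds.

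No perturbation changed the terminal share of all peaks by an amount that passed the test. The share was 2.03% and 2.02% in the DMSO 24 h libraries and 2.09% and 2.00% with ICRF-193, so that the treated values enclosed the controls (log2 change 0.013, two-sided exact permutation p = 1, where 2 against 2 cannot go below 0.333). At 1 h the shares were 2.12%, 2.14% and 2.09% with DMSO and 2.19%, 2.19% and 2.07% with ICRF-193, which overlapped (log2 change 0.023, exact permutation p = 0.6, where 3 against 3 cannot go below 0.1). In Baf53afl/- cells the shares were 2.15% and 2.19% with ethanol and 2.18% and 2.18% with tamoxifen (log2 change 0.0046, exact permutation p = 1).

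In Brg1fl/fl cells the terminal share was 2.17% and 2.10% with ethanol and 2.22% and 2.33% with tamoxifen. The 2 groups did not overlap (log2 change 0.088), and the exact permutation p was 0.333, the smallest the design allows. The number of terminal peaks fell, from 2336 and 1788 to 1881 and 1081, but less than the lists as a whole. Without tamoxifen replicate 2 the log2 change was 0.054. By replicate number it was 0.030 for replicate 1 and 0.15 for replicate 2, where the list shortened by 0.34 and 0.87 log2 units. Over all 4 contrasts together the mean log2 change was 0.032 (exact permutation within contrasts, p = 0.0773, adjusted p = 0.155 over 4 measures), in the same direction in 6 of 9 same-numbered pairs. The ratios of density and width and the difference of score percentile did not pass either (adjusted p of 0.155, 0.964 and 0.607).

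**Figure D4:**
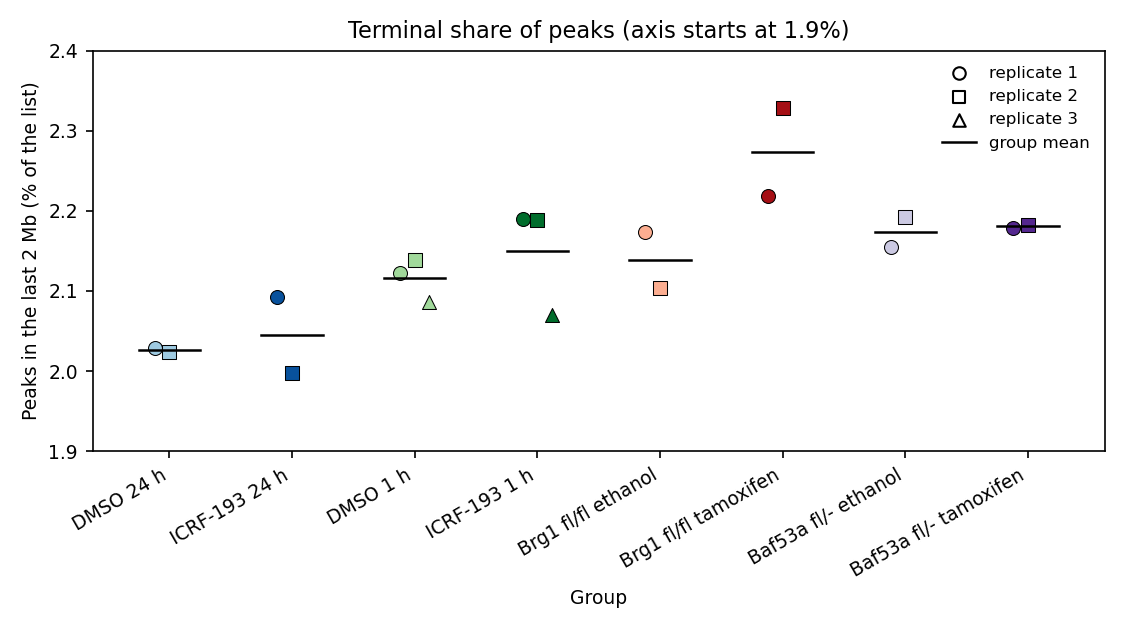
Share of each list's peaks that lie in the last 2 Mb of the autosomes (vertical axis in percent, cut to the range from 1.9%) by group (horizontal axis); each symbol is a library with its replicate number and bars are group means. The values run from 2.00% to 2.33%, and of the 4 treated and control pairs of groups the Brg1fl/fl pair is the one without overlap.

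The terminal share was lower in longer lists over the 18 libraries (Pearson r = -0.518, permutation p = 0.0293, Spearman rho = -0.430, p = 0.0760, adjusted 0.0293 and 0.0760 over 3 relations). Without the 2 libraries farthest from the median length r was -0.182 (permutation p = 0.504), so that the relation rests on those libraries. Within the 8 libraries of replicate 1 r was -0.284 (exact permutation p = 0.497), and within the 10 of replicates 2 and 3 it was -0.682 (permutation p = 0.0302).

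Over the 4 contrasts together the share of the outermost 1 Mb rose, while that of the next 1 Mb did not pass the test. The outermost 1 Mb held 1.02% and 1.03% of the list in the Brg1fl/fl ethanol libraries and 1.13% and 1.19% with tamoxifen (log2 change 0.18, no overlap, exact permutation p = 0.333, the smallest possible), while the share of the inner 1 Mb changed by -0.0013. In peak numbers the outermost 1 Mb went from 1096 and 875 to 959 and 553. The log2 changes of the outermost 1 Mb were 0.027 for ICRF-193 at 24 h, 0.051 at 1 h and 0.045 for the Baf53a deletion, and the libraries of these 3 contrasts overlapped. The 4 contrasts together gave a mean log2 change of 0.076 for the outermost 1 Mb (exact permutation within contrasts, p = 0.00972, adjusted p = 0.0292 over the 3 stretch lengths of 1, 2 and 5 Mb). The inner 1 Mb gave -0.010 (exact permutation p = 0.605). The difference between both, a comparison chosen after the data were seen, was 0.086 (exact permutation p = 0.0144). For the Baf53a deletion the inner 1 Mb changed by -0.035, without overlap (exact permutation p = 0.333, the smallest possible). Its change was 0.00033 for ICRF-193 at 24 h and -0.0045 at 1 h, where the libraries overlapped.

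Without the Brg1 contrast, the other 3 contrasts gave 0.041 for the outermost 1 Mb (exact permutation p = 0.0583), so the joint call is lost without it. Whether the Brg1 change exceeds that of the other contrasts was not tested. The share of the outermost 1 Mb also followed list length (Pearson r = -0.658, permutation p = 0.00365, Spearman rho = -0.633, p = 0.00603, adjusted 0.00547 and 0.00904 over 3 relations). Without the 2 libraries farthest from the median length r was -0.420 (permutation p = 0.106) and rho -0.506 (permutation p = 0.0482). Pearson r was -0.714 within replicate 1 (n = 8, exact permutation p = 0.0449) and -0.681 within replicates 2 and 3 (n = 10, permutation p = 0.0299). There rho was -0.476 and -0.564 (permutation p = 0.243 and 0.0966). With equal numbers of top-scoring peaks per list the change was 0.17 for the Brg1 contrast and 0.073 for the 4 together (exact permutation p = 0.0120). Brg1fl/fl ethanol replicate 2 and tamoxifen replicate 1 had lists of nearly equal length, 85007 and 84763 peaks, and their outermost 1 Mb held 1.03% and 1.13% of them. In Baf53afl/- cells, lists of similar length held 1.08% (ethanol replicate 2, 83918 peaks), 1.07% (tamoxifen replicate 1, 88729) and 1.11% (tamoxifen replicate 2, 86960). The part of read depth in these differences was not tested, since the lists hold no reads.

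End by end, no 2 Mb terminal window passed the test in any contrast. Windows were compared with limma on log2((peaks + 0.5) / list total × 1000) over all 18 libraries, with Benjamini-Hochberg adjustment over 1266 windows. Of the 19 terminal windows 0 were called at an adjusted p under 0.05 for ICRF-193 at 24 h, ICRF-193 at 1 h, Brg1 and Baf53a. The unadjusted limma p was under 0.05 at 3, 1, 4 and 0 of them, against 159, 26, 287 and 59 of all 1266 windows. The background of adjusted calls was low too. For Brg1 0.316% of all windows were called higher and 1.9% lower, and in each of the other 3 contrasts 0% were called in either direction. The Brg1 and Baf53a effects, and the 24 h and 1 h ICRF-193 effects, differed at 0 terminal windows by the interaction contrasts. There 1 and 0 terminal windows had an unadjusted p under 0.05, against 151 and 56 of all 1266 windows.

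After Brg1 deletion 14 of 19 terminal windows had a log2 change above 0 (73.7%, against 43.3% of all windows), with a median of 0.11 against -0.05 for all windows. The largest rises were at chromosome 19, with 73 and 61 peaks in the ethanol and 70 and 51 in the tamoxifen libraries (relative log2 change 0.45, SE 0.16, limma adjusted p = 0.0878), and at chromosome 10, with 129 and 97 against 124 and 72 (0.37, SE 0.11, limma adjusted p = 0.0596). The numbers of peaks there fell less than the lists did. The chromosome 10 end is last occupied, in gene order, by vomeronasal receptor genes (Vmn2r85, Vmn2r86, Vmn2r87), which serve pheromone sensing.

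The largest falls were at chromosome 1, from 122 and 77 peaks to 64 and 38 (-0.36, SE 0.12, limma adjusted p = 0.0676), and at chromosome 14, from 102 and 59 to 55 and 30 (-0.32, SE 0.15, limma adjusted p = 0.210). Single libraries moved these values: without ethanol replicate 1 they were -0.20 at chromosome 1 and -0.09 at chromosome 14, where the value was -0.54 without ethanol replicate 2. The chromosome 19 value was 0.24 without tamoxifen replicate 2. Chromosome 1 ends in the complement receptor and regulator genes Cd46, Cr1l and Cr2. With 1 Mb windows, where 3.31% of all windows were called for Brg1, 2 terminal windows passed. On chromosome 1 the second Mb from the end went from 63 and 44 to 27 and 15 peaks (log2 change -0.76, SE 0.15, limma adjusted p = 0.00459). On chromosome 19 the outermost Mb went from 44 and 39 to 50 and 36 peaks, in lists that had become shorter (0.64, SE 0.19, limma adjusted p = 0.0464). At 15 of the 19 ends the outermost 1 Mb window had a change above 0 (78.9%, against 45.3% of all windows), with a median of 0.14, while 9 of 19 windows of the second Mb did.

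In the other 3 contrasts the 2 Mb windows lay on both sides of 0. Above 0 were 9 of 19 windows for ICRF-193 at 24 h, 10 at 1 h and 10 for Baf53a, against 47.1%, 46.2% and 48.6% of all windows. Among 1 Mb windows, the outermost was above 0 at 13 ends for Baf53a (68.4%, against 48.2% of all windows), at 12 for ICRF-193 at 1 h (63.2%, against 48.9%) and at 11 at 24 h (57.9%, against 49.5%). The second Mb was above 0 at 6, 7 and 10 ends, so that in each contrast, Brg1 included, more outermost than second windows were above 0. With ICRF-193 for 24 h the largest changes were -0.48 at chromosome 18 and -0.33 at chromosome 14, and 0.25 at chromosome 19 and 0.18 at chromosome 11. The chromosome 18 end had 40 and 87 peaks in the DMSO and 37 and 29 in the ICRF-193 libraries, so that its value rests on DMSO replicate 2 (-0.11 without it, -0.85 without DMSO replicate 1). The chromosome 11 value was 0.061 without DMSO replicate 2 and 0.29 without DMSO replicate 1. At 1 h chromosome 18 again had the lowest value, -0.36, with 50, 32 and 103 peaks against 41, 20 and 49, followed by -0.13 at chromosome 13. Without DMSO replicate 3 these were -0.12 and -0.021, without DMSO replicate 1 chromosome 18 was at -0.59, and chromosome 13 was at -0.059 without ICRF-193 replicate 2 and at -0.20 without ICRF-193 replicate 1. The highest values at 1 h were 0.22 at chromosome 16 and 0.15 at chromosome 19, where leaving out single libraries gave 0.025 (DMSO replicate 3), 0.066 (DMSO replicate 1), 0.072 (ICRF-193 replicate 2) and 0.35 (DMSO replicate 2). For Baf53a the values were -0.21 at chromosome 14, -0.10 at chromosome 7, 0.17 at chromosome 17 and 0.23 at chromosome 13, with -0.063 at chromosome 7 without ethanol replicate 2 and 0.11 at chromosome 17 without tamoxifen replicate 2. None of these passed the limma test (the lowest adjusted p of any terminal window was 0.381, 0.997 and 0.982 in the 3 contrasts).

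**Figure D5:**
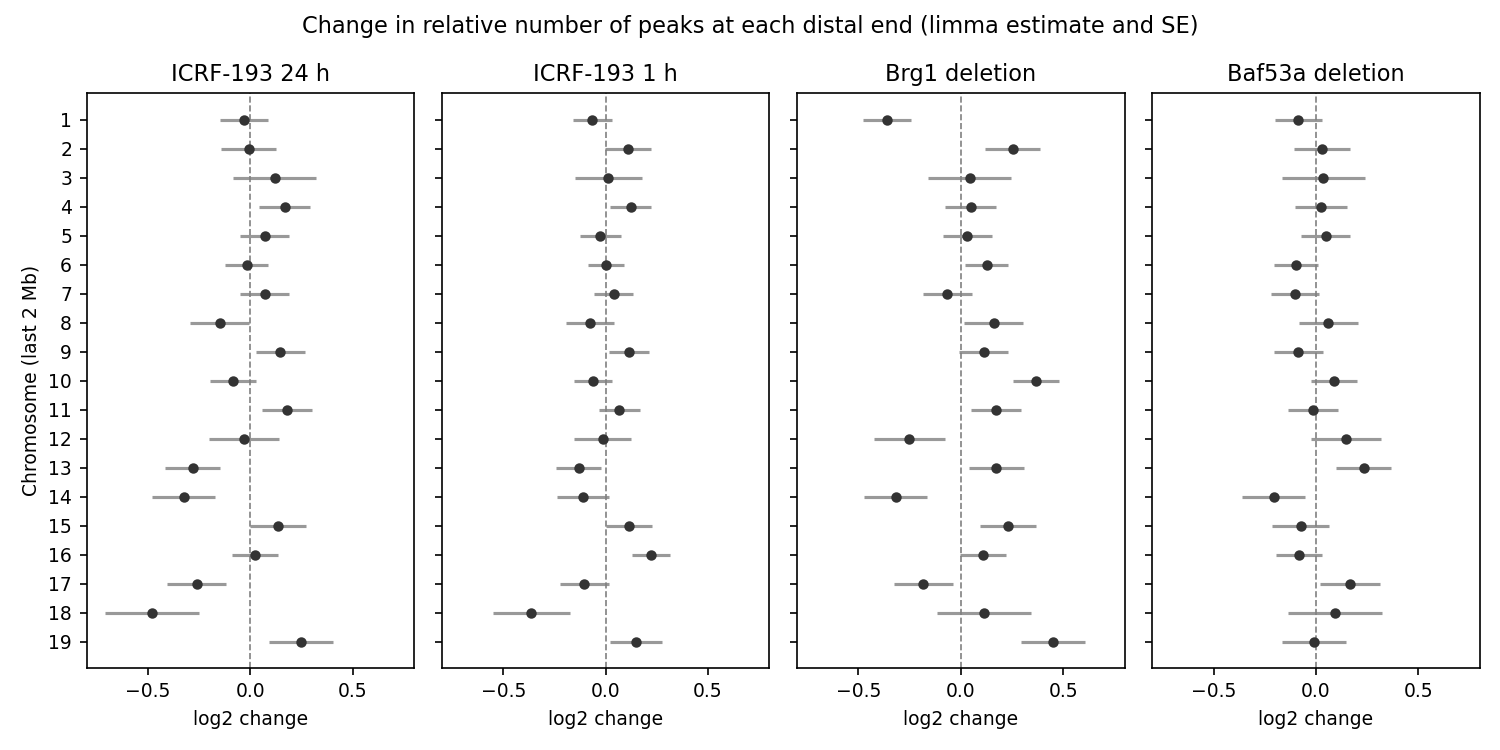
Log2 change in the relative number of peaks (horizontal axis) at the last 2 Mb of each autosome (vertical axis) in the 4 contrasts; points are limma estimates and bars their SE over 18 libraries. For the Brg1 deletion 14 of 19 points lie right of 0, with chromosomes 19 and 10 highest and chromosome 1 lowest; the other panels hold 9 to 10 points right of 0.

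In the full libraries the share of terminal regions lost was below that of the rest of the chromosomes in all 4 contrasts. Loss means that all control libraries and none of the treated ones held a peak, counted as a share of the regions that all controls held, and gain means the reverse; no test was made, since regions are not replicates. With ICRF-193 for 24 h 157 of 1303 terminal regions were lost (12.05%, against 15.5% over all chromosomes and 15.6% in the rest of the autosomes), and at 1 h 10 of 903 (1.11%, against 2.28% and 2.31%). With 3 libraries a group instead of 2, the 1 h rule is the stricter one, so the shares of the 2 times are not comparable. After Brg1 deletion 230 of 1215 were lost (18.9%, against 23.9% in both references), and after Baf53a deletion 126 of 1252 (10.1%, against 11.2% in both). The order turned when 1 control library was left out: without DMSO 24 h replicate 1 the share lost at 24 h was 42.9% against 42.8% in the rest, and without Baf53afl/- ethanol replicate 2 it was 35.5% against 35.0%. Gains made up 54 of 1013 regions at 24 h (5.33%, against 5.46% over all chromosomes), 2 of 763 at 1 h (0.262%, against 0.375%), 45 of 751 for Brg1 (5.99%, against 4.97%) and 57 of 1067 for Baf53a (5.34%, against 5.49%).

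Terminal regions shared by controls ranked higher in score than those of the rest: the median percentile in the Brg1 controls was 69.0 against 66.3, and weaker regions were lost more often. Over 5 equally filled score classes the Brg1 loss ran from 42.2% of terminal regions against 48.5% of the rest in the weakest class to 1.35% against 2.56% in the strongest. The part of score in the difference between terminal regions and the rest was not tested. The weakest class held 18.9% of the terminal regions shared by the controls, and the strongest 24.4%.

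The strongest terminal regions lost after Brg1 deletion were present in nearly all other libraries. The region chr17:94669063-94669571 had a mean score percentile of 94.5 ± 2.1 (SD, n = 2 ethanol libraries) and a peak in all 16 libraries other than the 2 tamoxifen-treated Brg1fl/fl ones. The same held for chr14:123912613-123912925, at 94.1 ± 4.5. The third, chr17:94342371-94342948, at 92.0 ± 1.3, was found in 15 of those 16 libraries. All 3 thus kept peaks in both Baf53afl/- tamoxifen libraries and in both ICRF-193 24 h libraries.

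Among the regions gained after Brg1 deletion the highest in score, chr19:60386481-60386942, had a mean percentile of 79.9 ± 1.0 in the 2 tamoxifen libraries and also had peaks in 10 of the 14 libraries outside the Brg1fl/fl line. The next, chr12:120153599-120153850 (68.4 ± 3.3) and chr10:128221123-128221576 (67.5 ± 9.6), were also found in both Baf53afl/- tamoxifen libraries, and in 2 and 7 further libraries.

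With ICRF-193 for 24 h the strongest lost terminal region was chr17:95257600-95258066, at the 83.5th percentile (SD 2.8, n = 2 DMSO libraries) and 13623 bp from the last peak end; it had peaks in all 6 libraries of the 1 h experiment. The next were chr1:195503703-195504260 and chr8:130088374-130088840, at mean percentiles of 80.5 ± 11.8 and 79.2 ± 0.98 (SD, n = 2). The strongest gained ones were chr1:196501939-196502414 and chr1:196269890-196270267, at 74.5 ± 3.8 and 73.1 ± 7.7 (SD, n = 2), both with peaks in DMSO 1 h libraries too. The third, chr12:120183609-120183876 at 66.5 ± 7.3, was found in no library beyond the 2 that define it. At 1 h the 3 lost regions of highest mean score ranked at 57.7 ± 3.3, 52.0 ± 19.8 and 46.9 ± 18.8 (SD, n = 3; chr5:151773123-151773373, chr13:119242818-119243146 and chr17:95173268-95173779). The 2 gained ones ranked at 38.3 ± 13.5 and 25.9 ± 26.7 (SD, n = 3; chr4:155587951-155588527 and chr5:151217380-151217649). These are middle to low ranks, and no strong terminal region met the rule at 1 h.

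After Baf53a deletion the lost terminal regions of highest mean score were chr11:121513826-121514258, chr6:148163412-148163612 and chr1:196756134-196756594. Their mean percentiles were 72.6 ± 0.76, 68.1 ± 21.9 and 66.7 ± 7.3 (SD, n = 2 ethanol libraries). The first had no peak in the Brg1fl/fl ethanol libraries and a peak in both tamoxifen libraries of that line. The gained ones of highest mean score were chr6:148636256-148636566 at 74.2 ± 2.7, chr10:129984363-129984580 at 72.9 ± 5.4 and chr8:130409719-130409967 at 62.9 ± 30.7 (SD, n = 2 tamoxifen libraries). The last stood at 41.2 in 1 tamoxifen library and at 84.6 in the other. The chromosome 10 one is the outermost region of its chromosome, 108.5 bp from the last peak end, and no library outside the Baf53afl/- tamoxifen group held it.

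Of the terminal regions lost in any contrast, 416 (88.9%) were lost in 1 contrast, 49 (10.5%) in 2, 3 (0.641%) in 3 and 0 in all 4. The shares in the rest of the autosomes were close to these, at 88.5%, 10.8% and 0.690%, with 0 regions lost in all 4 there too. The 4 contrasts share no library. The Brg1 and Baf53a deletions had 25 lost terminal regions in common, 10.9% of the Brg1 and 19.8% of the Baf53a list, against 8.36% and 17.7% in the rest. Brg1 deletion and ICRF-193 for 24 h had 21 in common, 9.13% and 13.4% of the respective lists, against 11.03% and 14.8% in the rest. Of the gained regions, the Brg1 and Baf53a deletions shared 4, 8.89% of the Brg1 and 7.02% of the Baf53a list, against 2.79% and 1.64% in the rest. None of these differences from the rest was tested.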

How the data were processed

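The deposited data are 1 ATAC-seq peak list per library, called per sample. The submitters' processing notes name Bowtie 0.12.9, MACS2, edgeR 3.12.1 and build mm9 without saying what each tool did. Any read shifting, blacklist or calling parameter is not given in the sources used here. Deposited positions (other values) are printed counted from 1, and the deposited score, whose unit is not stated, was ranked within lists. Peaks overlapping by 1 bp or more were merged (checked with bedtools 2.31.1). Single values were compared by exact permutation (all arrangements, numpy 2.4.6), and windows averaging 10 or more peaks with limma 3.58.1 (R 4.3.3). The limma step was also run on simulated counts with set changes, which carried no relation to list length beyond the list total. Named were the 3 densest and 3 sparsest ends, the 2 largest rises and falls and every called window per contrast, the 5 shared regions of highest score, and the 3 strongest lost and gained regions. The members and lists were chosen with earlier results of these data known. Nothing in the labels says that replicate numbers pair libraries. At 1 h the correlations of deviations within numbers were 0.146 to 0.570 in 3 pairs, but replicate 1 reached 0.248 with another number. No other contrast had 3 pairs. No mm9 sequence was used here, so no sequence is printed. Alternatives covered stretch and window length, list length, score threshold, normalization, merging and left-out libraries.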

Additional observations from a re-analysis of the deposited data

How the results depend on the processing

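The 1.41-fold terminal density kept its direction and call under all 5 alternatives run for it. With a 5 Mb stretch the median score percentile difference turned to -0.438 and the Baf53a change of the terminal share to -0.014. The joint change of the terminal share passed the threshold with a 1 Mb stretch (0.076, exact permutation p = 0.00972), with equal numbers of peaks (0.036, p = 0.0412) and with base pairs under peaks (0.036, p = 0.0208). It also passed without ICRF-193 24 h replicate 2 or ICRF-193 1 h replicate 3 (0.041 and 0.039, exact permutation p = 0.0190 each) and without Baf53a ethanol replicate 2 (0.035, exact permutation p = 0.0394), with a range of 0.023 to 0.041 over the 18 left-out libraries. Leaving out 1 library gave -0.021 (without ICRF-193 24 h replicate 1) to 0.047 for ICRF-193 at 24 h, 0.0090 to 0.049 at 1 h, 0.054 to 0.12 for Brg1 and -0.0079 (without Baf53a ethanol replicate 1) to 0.017 for Baf53a. For the outermost 1 Mb, an analysis extended after the data were seen, the joint change stayed within 0.067 to 0.085, and the ICRF-193 24 h value ran from -0.0031 (without ICRF-193 24 h replicate 1) to 0.057, the Brg1 value from 0.14 to 0.22, the 1 h value from 0.029 to 0.075 and the Baf53a value from 0.0085 to 0.082. The relation of terminal share and list length was lost without the 2 farthest libraries (r = -0.182) and within replicate 1 (r = -0.284).

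Terminal windows called for Brg1, with the share of all windows called beside them, numbered 2 of 38 with 1 Mb windows (5.26% against 3.31%), 1 of 19 with equal numbers of peaks (chromosome 1; 5.26% against 8.53%) and 2 among the top 50% by score (chromosomes 1 and 19; 10.5% against 5.60%). They numbered 0 to 1 without 1 library: 1 without ethanol replicate 2 (chromosome 1; 2.13% of all windows) and 1 without tamoxifen replicate 1 (chromosome 19; 5.21% of all). A replicate block, for which the labels give no shared batch, called 3 (chromosomes 1, 10 and 19; 15.8% against 183 of 1266 windows, 14.5%), and under it the joint terminal share had an exact p of 0.0664; it changed no other call of terminal windows or shares. The chromosome 16 window at 1 h turned to -0.017 with equal numbers of peaks.

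Lost shares, each against the rest of the autosomes, were with equal numbers of peaks 9.61% against 11.7% for ICRF-193 at 24 h, 15% against 18.9% for Brg1 and 8.07% against 9.58% for Baf53a. On the full lists the Brg1 share in the outermost 1 Mb was 16.7% against 23.9%, and among the top 50% by score the Baf53a share was 7.84% against 9.88%. Gained shares with equal numbers were 7.58% against 8.08% for ICRF-193 at 24 h and 8.45% against 9.53% for Brg1. Among the top 50% they were 3.94% against 4.97% at 24 h, 0% against 0.172% at 1 h, 2.94% against 3.82% for Brg1 and 3.27% against 4.96% for Baf53a, so that the higher Brg1 gain at the ends turned under both settings. Leaving out 1 library loosens the rule by construction. Lost shares then ran from 17.5% (21.9% in the rest) to 42.9% (42.8%) at 24 h, 1.55% (2.77%) to 9.75% (11.1%) at 1 h, 21.6% (26.3%) to 47.2% (48.6%) for Brg1 and 14.9% (18.2%) to 35.5% (35.0%) for Baf53a, above the rest in 1 of 4 cases at 24 h, 0 of 6 at 1 h, 0 of 4 for Brg1 and 1 of 4 for Baf53a. Gained shares ran from 9.67% (8.95%) to 28.4% (27.7%), 0.262% (0.444%) to 2.18% (2.96%), 9.45% (9%) to 31.8% (31.0%) and 8.15% (8.11%) to 31.2% (31.3%), above the rest in 2 of 4, 0 of 6, 2 of 4 and 1 of 4 cases. Regions shared by all 18 libraries made up 5.02% (4.79% in the rest) with a 5 Mb stretch, 14.5% (10.8%) with equal numbers, 13.03% (9.42%) among the top 50% and 4.71% (4.03%) when merged from 100 bp overlap. Regions of 1 library made up 55.9% (54.9%), 37.6% (36.6%), 28.2% (29.8%) and 67.6% (65.0%), so that their order against the rest turned among the top 50%. Beyond the effect of fewer or merged peaks, the cause of these differences was not tested. Read depth, which the lists do not give, limits every comparison of peak numbers.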
